A study of Homo sapiens with 12 samples.

Results

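The miR-17-92 cluster, its paralog miR-106a-363 and the miR-106b-25 cluster are groups of miRNA hairpins that are each cut from 1 shared transcript. Members were taken as every listed miRNA that carries a name of these hairpins, in either arm (miR-17, miR-18a, miR-18b, miR-19a, miR-19b, miR-20a, miR-20b, miR-92a, miR-106a, miR-106b, miR-363, miR-93 or miR-25), which gave 7 miRNAs in each deposited table, out of 137 miRNAs for parental exosomes and 114 for CSC-like ones. They are hsa-miR-92a-3p, miR-20a-5p, miR-17-5p and miR-19b-3p from miR-17-92 or miR-106a-363, and hsa-miR-106b-3p, hsa-miR-25-3p and miR-93-5p from miR-106b-25.

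The libraries hold small RNA from exosomes, vesicles released by cells, of MDA-MB-231, an established human breast adenocarcinoma line of mesenchymal type. The 4 groups of 3 libraries are untreated parental, cisplatin-treated parental, untreated sorted CSC-like (cancer stem cell-like) and cisplatin-treated sorted CSC-like cells, all kept for 48 h in serum depleted of exosomes, with cisplatin at 56 µM in the treated groups. Cisplatin is a platinum compound used in chemotherapy, and its adducts crosslink DNA strands. All groups come from this single line, the marker of the sort is not given in the sources used here, and the extraction text speaks of RNA from the cells although the kit it names is one for exosomes. Whether replicates were separate cultures is not given, so the p-values speak only for the spread among these libraries, which may be technical.

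Both clusters are known as growth-promoting miRNAs. MYC and E2F factors raise their transcription, and their products repress the cell cycle inhibitor CDKN1A and the pro-apoptotic protein BCL2L11 (BIM). The hairpins of miR-106b-25 lie inside the gene of MCM7, a subunit of the replicative helicase, and those of miR-17-92 inside the non-coding host gene MIR17HG, which is often amplified in B cell lymphoma. A miRNA finds its targets mainly through its seed, bases 2 to 8, so members of different clusters that share a seed share most targets.

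The 7 mature sequences are given first because members are grouped by seed as well as by cluster. They were read 5′ to 3′ from RefSeq (GRCh38.p14), with the seed in capitals, and all 7 equalled the deposited sequences once T was written as U. The seed group of miR-25 and miR-92a is shown first, then that of miR-17, and then the 2 members with seeds of their own.
miR-92a-3p: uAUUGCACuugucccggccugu
miR-25-3p: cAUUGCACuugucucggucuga
miR-20a-5p: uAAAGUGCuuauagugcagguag
miR-17-5p: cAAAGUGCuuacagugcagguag
miR-93-5p: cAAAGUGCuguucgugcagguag
miR-106b-3p: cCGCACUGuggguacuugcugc
miR-19b-3p: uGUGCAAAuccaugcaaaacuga

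The 7 members thus carry 4 seeds. With bases counted from 1 at the 5′ end and the first-named miRNA's base written first, miR-25-3p differs from miR-92a-3p by C1U, U14C, U18C and A22U, all outside the seed. miR-17-5p differs from the unlisted miR-106a-5p only by C1A, and miR-19b-3p from the unlisted miR-19a-3p only by C11U. The number of mismatches allowed in read assignment is not given in the sources used here, so counts of miR-17-5p and miR-19b-3p may hold reads of these relatives and are uncertain to that extent.

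In GRCh38 miR-25-3p (chr7:100093571-100093592), miR-93-5p (chr7:100093815-100093837) and miR-106b-3p (chr7:100094002-100094023) lie on the minus strand, in introns of all 8 MCM7 transcripts of GENCODE 29 that span them. miR-17-5p (chr13:91350618-91350640) and miR-20a-5p (chr13:91351072-91351094) lie on the plus strand within MIR17HG, in exonic sequence of 2 of the 3 transcripts that span them. Both miR-19b-3p (chr13:91351245-91351267 and, on the minus strand, chrX:134169683-134169705) and miR-92a-3p (chr13:91351361-91351382 and chrX:134169544-134169565) are encoded at 2 loci with identical mature sequences. Their counts cannot be assigned to miR-17-92 or to miR-106a-363, and these clusters are therefore summed together.

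RefSeq holds 27 mature names under the member rule, of which 20 were not listed in either table. Each table lists only miRNAs with counts in both of its groups, so an unlisted name can still have had counts in 1 group. No hairpin had both arms listed. For MIR106B the listed arm was the 3p arm, in capitals here within the hairpin (chr7:100093993-100094074, minus strand), while the 5p arm, which carries the seed of the miR-17 group, was not listed.
MIR106B: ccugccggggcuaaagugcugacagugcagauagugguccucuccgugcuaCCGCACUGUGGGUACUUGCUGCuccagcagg

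Depth was low throughout. Parental libraries held 2648 to 6622 listed counts and CSC-like ones 429 to 2522. A miRNA with 0 counts may thus still have made up 0.0453% of the deepest library or 0.699% of the shallowest (3 counts of the total). Shares are percentages of the summed listed counts of a library, and single-library intervals are exact (Clopper-Pearson) 95% intervals that cover counting error only. In a chi-square test over miRNAs, the difference between treated CSC-like replicates 2 and 3 stayed within sampling noise (1.18 per degree of freedom), and they were counted as 1 sample. Other replicate pairs stood at 1.48 to 51.2 per degree of freedom. Untreated parental replicate 2 stood apart from its group at the top of the list. It held 22.1% miR-21-5p, where replicates 1 and 3 held 6.72% and 8.74%, and 21.4% miR-100-5p, where they held 51.1% and 44.5%. The 5 miRNAs typical of this mesenchymal line, miR-21-5p among them, made up 54.2% to 56.8% of counts in the group means. Most of this was miR-21-5p (12.5% to 31.9%) and miR-100-5p (17.5% to 39%). miR-222-3p, also among the 5, had only 1 to 11 counts per library. The epithelial miR-200b-3p and miR-429 together made up 0.0889% to 0.226%, while the other 4 epithelial miRNAs of the list were unlisted.

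The 7 members together made up 2.31% ± 0.915 of counts in untreated parental, 1.81% ± 0.537 in cisplatin-treated parental and 1.21% ± 1.11 in untreated CSC-like exosomes (SD, n = 3 each), and 1.05% ± 0.166 in cisplatin-treated CSC-like exosomes (SD, n = 2). The libraries overlapped widely, from 1.62% to 3.35% in the first group, 1.30% to 2.37% in the second, 0.552% to 2.49% in the third and 0.635% to 1.23% in the fourth. Shares are relative, so less of these members and more of other miRNAs cannot be told apart, and shares do not show the amount of vesicles. Over all libraries of a table miR-92a-3p led, at rank 15 of 137 by mean share among parental and 24 of 114 among CSC-like exosomes, followed by miR-106b-3p (ranks 29 and 50) and miR-25-3p (31 and 52). The order below miR-92a-3p was not the same in each group. In untreated parental exosomes the mean share of miR-25-3p (0.519%) was above that of miR-106b-3p (0.463%), and in treated CSC-like exosomes those of miR-17-5p (0.273%), miR-20a-5p (0.130%) and miR-25-3p (0.0958%) were above that of miR-106b-3p (0.0425%), differences within the spread between libraries. Each member of the miR-17 seed group had few counts, while their summed share was 0.229% to 0.416% in the group means. No library held more than 10 counts of miR-93-5p, miR-20a-5p or miR-17-5p, or more than 3 of miR-19b-3p.

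**Figure D1:**
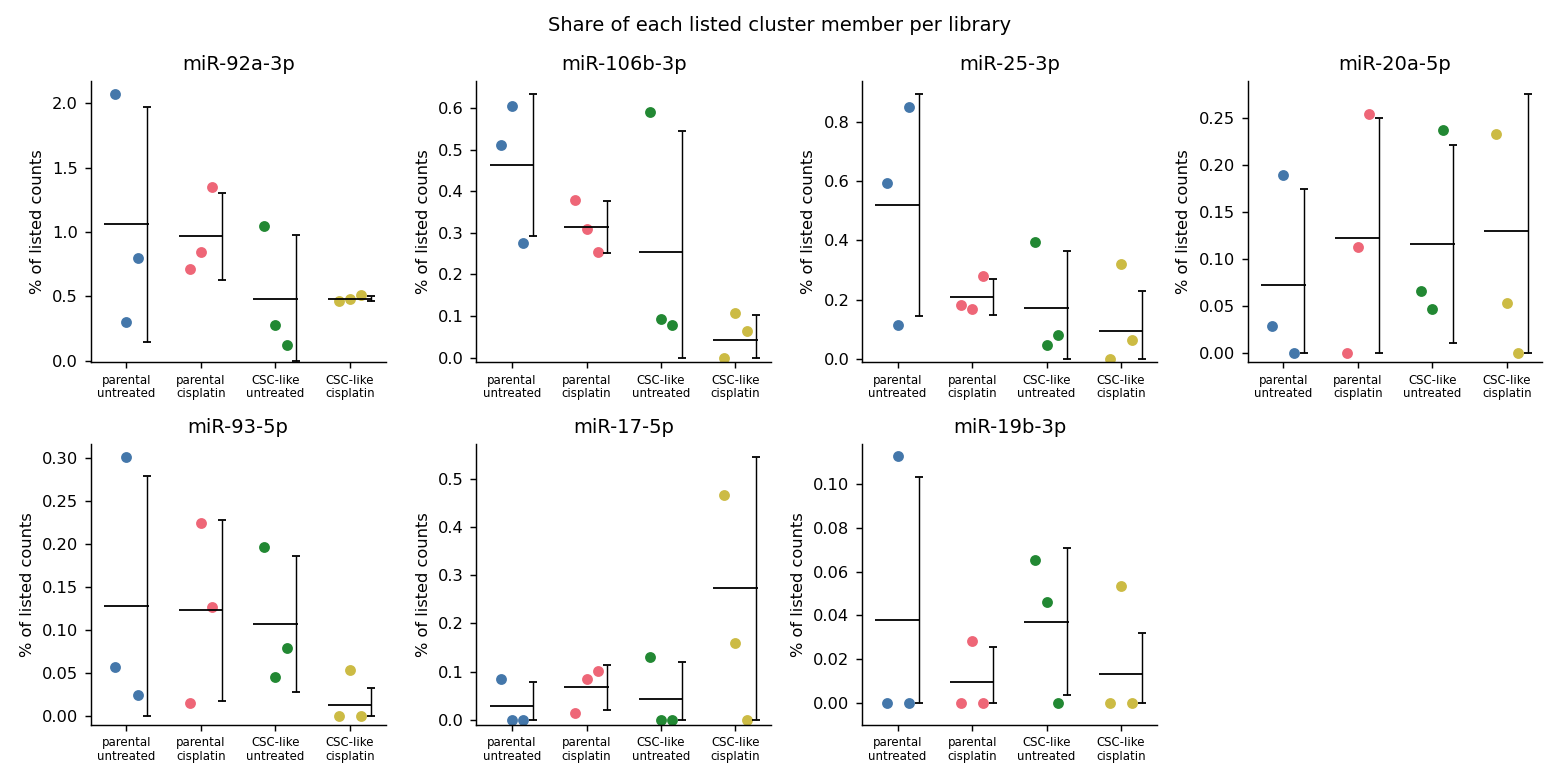
Share of each of the 7 listed members in percent of listed counts (y axis, a scale of its own in each panel) for the 12 libraries in 4 groups (x axis). Points are libraries in the order of replicates 1 to 3, horizontal lines are group means and vertical bars 1 SD, drawn down to 0 where the SD exceeds the mean, with cisplatin-treated CSC-like replicates 2 and 3 averaged as 1 sample. miR-92a-3p spans 0.302% to 2.07% within untreated parental libraries.

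In parental exosomes the sums of both clusters were compared by library. Summed miR-106b-25 counts made up 1.16%, 1.02% and 1.15% of the 3 untreated parental libraries and 0.574%, 0.704% and 0.663% of the treated ones, or 1.11% ± 0.0788 against 0.647% ± 0.0664 (SD, n = 3 each). The groups did not overlap in this sum. Of the 37 single miRNAs tested in this comparison 16.2% (6) did not overlap, and 0 did so with the treated libraries lower. A sum and single miRNAs are unlike units, and miR-93-5p, which is in the sum, is not among the 37. No rate was computed for sums of other miRNAs, so these figures do not show whether the separation of the sum is unusual. Summed miR-17-92 and miR-106a-363 counts made up 2.18%, 0.604% and 0.799% untreated and 0.725%, 1.07% and 1.71% treated, or 1.20% ± 0.861 against 1.17% ± 0.499, with overlapping groups. These sums over chosen members carry no test, and no single member of miR-106b-25 was separated between the groups. The sum of miR-106b-25 also stayed apart between the groups relative to counts outside miR-21-5p and miR-100-5p (2.34% ± 0.486 and 1.29% ± 0.13, SD, n = 3 each) and to TMM-scaled library sizes (1.24% ± 0.128 and 0.588% ± 0.121). TMM (trimmed mean of M-values) is a scaling that sets the libraries level on the bulk of their miRNAs.

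The narrow spread of the untreated sum hid unlike members. In untreated parental replicates 1, 2 and 3, miR-25-3p had 21, 3 and 34 counts, miR-93-5p 2, 8 and 1, and miR-106b-3p 18, 16 and 11. Replicate 2 was thus the lowest library for miR-25-3p and the highest for miR-93-5p. In CSC-like exosomes the miR-106b-25 sum was 1.18%, 0.184% and 0.238% in untreated libraries and 0%, 0.479% and 0.127% in treated libraries. Group means were 0.534% ± 0.56 (SD, n = 3) and 0.152% ± 0.214 (SD, n = 2), and the groups overlapped. In cisplatin-treated CSC-like replicate 1, whose 429 counts allow a share of up to 0.699% at 0 counts, no count of this cluster was seen. The sum of the other clusters stood at 0.679% ± 0.547 and 0.896% ± 0.381 there.

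**Figure D2:**
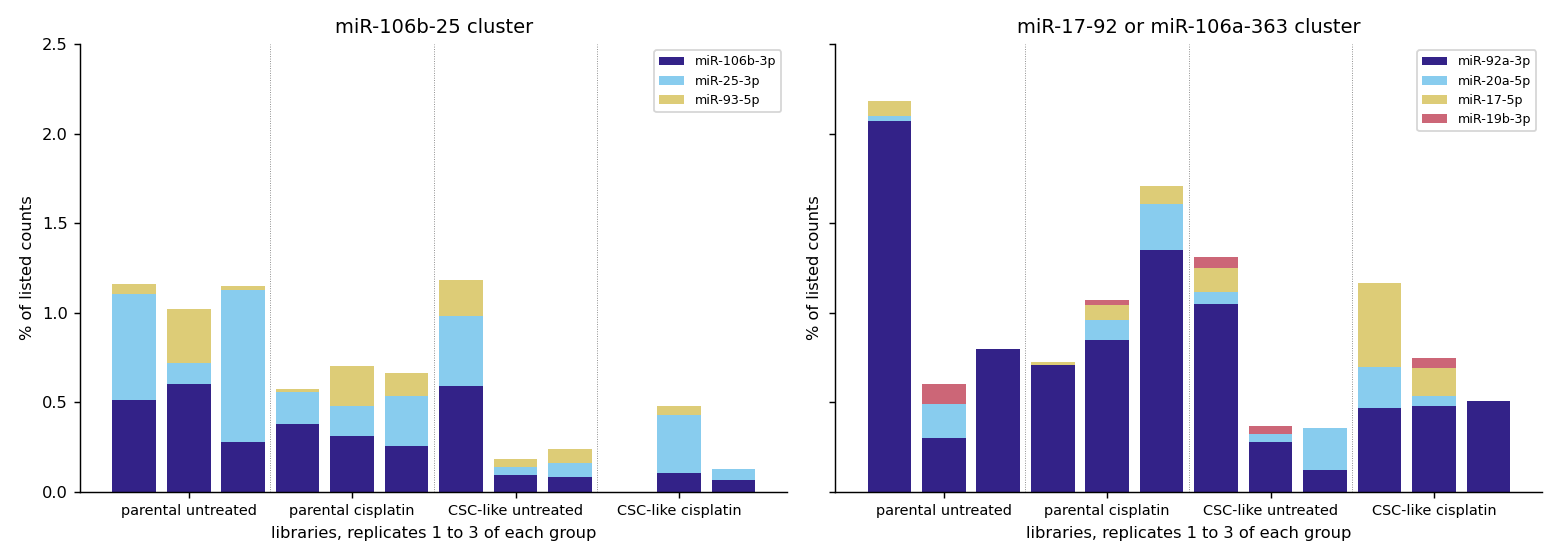
Summed share of the miR-106b-25 members (left) and of the miR-17-92 or miR-106a-363 members (right) in percent of listed counts (y axis, from 0) in each library (x axis, replicates 1 to 3 of each group, divided by dotted lines), with bars stacked by member. The 3 untreated parental libraries reach 1.02% to 1.16% on the left with different members making up the height, whereas on the right they range from 0.604% to 2.18%.

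By seed, the replicates of a group differed in make-up. The seed shared by miR-25-3p and miR-92a-3p made up 79.7% of the member counts in untreated parental replicate 1 (94 of 118, exact 95% interval 71.3 to 86.5) and 84.6% in replicate 3 (66 of 78, 74.7 to 91.8), but 25.6% in replicate 2 (11 of 43, 13.5 to 41.2). The miR-17 seed group made up 5.08%, 1.28% and 30.2% of member counts in replicates 1, 3 and 2. Among treated parental libraries the miR-17 seed group held 2.33%, 23.8% and 20.4% in replicates 1, 2 and 3. Over whole groups the miR-17 seed group held 8.37% of member counts in untreated parental (20 of 239), 14.9% in treated parental (36 of 242), 24.6% in untreated CSC-like (16 of 65) and 21.1% in treated CSC-like exosomes (8 of 38). These pooled shares hide the spread between replicates, which was as wide within as between groups, and no difference between groups was tested on them.

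**Figure D3:**
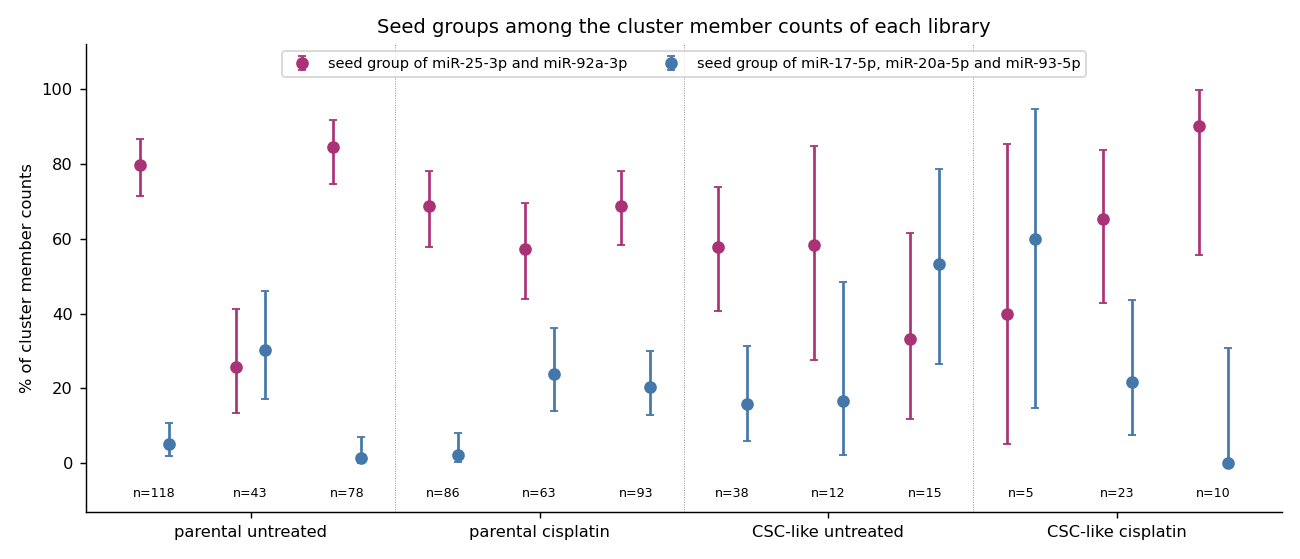
Share of the cluster member counts of each library (y axis, percent) held by the seed group of miR-25-3p and miR-92a-3p and by that of miR-17-5p, miR-20a-5p and miR-93-5p. Points are libraries in the order of replicates 1 to 3 within each group (x axis), bars are exact 95% intervals for counting error, and n is the number of member counts. Untreated parental replicate 2 stands at 25.6% and 30.2%, while replicates 1 and 3 of its group stand at 79.7% and 84.6% for the first seed group.

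The parental comparison asked how cisplatin changed the exosomal content of each member. hsa-miR-25-3p, which represses BCL2L11, made up 0.595%, 0.113% and 0.849% of untreated and 0.181%, 0.169% and 0.280% of treated libraries, or 0.519% ± 0.374 and 0.210% ± 0.0611 (SD, n = 3 each). Replicates 1 and 3 of the untreated group lay above every treated library and replicate 2 below. In edgeR's quasi-likelihood test with Benjamini-Hochberg adjustment over 37 miRNAs, miR-25-3p stood at -1.57 on the log2 scale (SE 0.63, adjusted p = 0.139), so it was not called.

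hsa-miR-106b-3p, usually the less abundant arm of its hairpin, made up 0.510%, 0.604% and 0.275% of untreated and 0.378%, 0.310% and 0.255% of treated parental libraries. The groups overlapped, and edgeR gave -0.90 on the log2 scale (SE 0.57, adjusted p = 0.333). hsa-miR-92a-3p, which represses BCL2L11 and the integrin ITGA5, had 73, 8 and 32 counts in untreated and 47, 30 and 53 in treated libraries. Its share was 1.06% ± 0.912 and 0.968% ± 0.338 (SD, n = 3 each), and edgeR gave -0.44 on the log2 scale (SE 0.87, adjusted p = 0.843). Its value turned to 0.35 without untreated parental replicate 1, the library with the most counts of it.

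None of the 3 tested members was thus called, beside 5.41% of the 37 tested miRNAs (2), and 1 of the 3 had an unadjusted p under 0.05, beside 16.2% (6). DESeq2, on the same 37 miRNAs, also called none of the 3. All 3 had fitted values below 0, beside 59.5% of all tested miRNAs, with a median of -0.90 against -0.27 over all 37. Without untreated parental replicate 2, miR-25-3p was called lower, with a log2 fold change of -2.09 (adjusted p = 0.00777, edgeR), and without untreated parental replicate 3 it did not pass the count filter and had no value. It was also called when the contrast was drawn from a fit to the 4 groups jointly (-2.10, adjusted p = 0.0459).

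The 4 members under the low-count filter were counted per library. miR-93-5p, which represses CDKN1A, had 2, 8 and 1 counts untreated and 1, 8 and 5 treated. miR-20a-5p, a repressor of E2F1, had 1, 5 and 0 counts and then 0, 4 and 10. miR-17-5p was rarer, with 3, 0 and 0 counts untreated and 1, 3 and 4 treated. So was miR-19b-3p, with 0, 3 and 0 counts and then 0, 1 and 0. Groups overlapped for each of these 4, and with no filter their edgeR log2 fold changes lay between -1.84 (SE 1.74, miR-19b-3p) and 0.76 (SE 1.39, miR-17-5p), each with an adjusted p of 0.935 over 137 miRNAs.

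In CSC-like exosomes only miR-92a-3p passed the filter, with 16, 6 and 3 counts untreated and 2, 9 and 8 treated. Its share was 0.481% ± 0.498 (SD, n = 3) and 0.48% ± 0.0195 (SD, n = 2), and its edgeR log2 fold change of 0.16 (SE 0.99, adjusted p = 0.990 over 29 miRNAs) was not called, beside 3.45% of tested miRNAs called (1) and 6.90% with an unadjusted p under 0.05 (2). Of the 29 tested miRNAs, 55.2% had fitted values below 0 and 13.8% did not overlap between the groups, with treated replicates 2 and 3 taken as 1 sample. The untreated libraries enclosed all treated ones. Untreated CSC-like replicate 1 had 16 of the 25 untreated counts, and on leaving it out the value was 1.40 (adjusted p = 0.826).

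miR-106b-3p had 9, 2 and 2 counts untreated and 0, 2 and 1 treated in CSC-like exosomes. miR-25-3p had 6, 1 and 2 and then 0, 6 and 1. Within the untreated group replicate 1 held most counts of both, and for miR-25-3p treated replicate 2 held as many. With no filter neither was called (-1.37, SE 1.16, and 0.24, SE 1.02, edgeR, adjusted p = 0.995 for both over 114 miRNAs). miR-17-5p had 2, 0 and 0 counts untreated and 2, 3 and 0 treated, miR-93-5p 3, 1 and 2 and then 0, 1 and 0, miR-20a-5p 1, 1 and 6 and then 1, 1 and 0, and miR-19b-3p at most 1 in any library. With the indistinguishable replicates taken as 1 sample, the shares of miR-93-5p were lower in all treated than in all untreated samples, but as single libraries they overlapped (0.0533% in treated replicate 2, 0.0460% in untreated replicate 2). With no filter the edgeR log2 fold changes were 2.07 for miR-17-5p (SE 1.34), -1.63 for miR-93-5p (SE 1.53), -0.99 for miR-20a-5p (SE 1.31) and -0.23 for miR-19b-3p (SE 1.82), each with an adjusted p of 0.995. No change was detectable at these counts.

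The difference between the cisplatin responses of both populations was tested as an interaction term over 48 miRNAs that both tables list. CSC-like minus parental, the log2 fold changes of miR-25-3p differed by 2.14 (SE 1.24, adjusted p = 0.604, edgeR), those of miR-92a-3p by 1.08 (SE 1.43, adjusted p = 0.881) and those of miR-106b-3p by -0.50 (SE 1.28, adjusted p = 0.902). None of the 3 was called or had an unadjusted p under 0.05 in edgeR, nor was any called by DESeq2, beside 2.08% (1) and 10.4% (5) of the 48. The median of all 48 was 0.36 with TMM and -0.28 with library totals, under which miR-25-3p stood at 1.29 and miR-92a-3p at 0.20. The responses of these members were therefore not shown to differ.

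**Figure D4:**
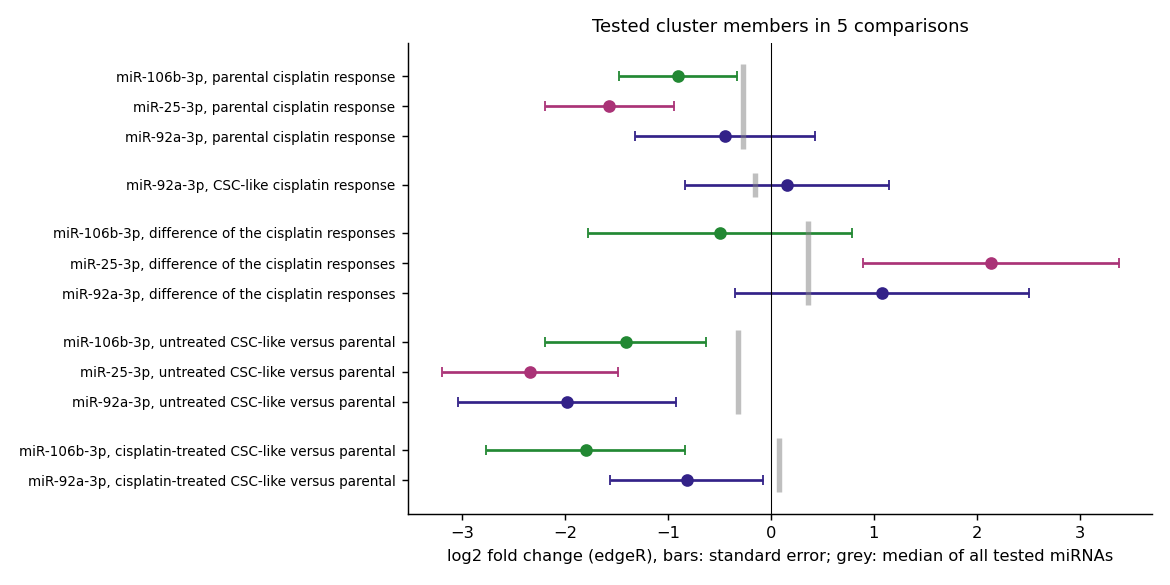
edgeR log2 fold changes of the cluster members that passed the count filter in 5 comparisons (rows), with bars of 1 standard error and a grey line at the median of all miRNAs tested in that comparison. None of the values was called, and those of the untreated comparison lie between -2.34 and -1.41.

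Untreated CSC-like exosomes were then set against untreated parental ones, on 30 miRNAs. miR-25-3p stood at 0.393%, 0.0460% and 0.0793% of CSC-like libraries, or 0.173% ± 0.192, against 0.519% ± 0.374 in parental ones (SD, n = 3 each). CSC-like replicates 2 and 3 lay below every parental library and replicate 1 among them. edgeR placed it at -2.34 on the log2 scale (SE 0.86, adjusted p = 0.0726). miR-92a-3p stood at -1.98 (SE 1.06, adjusted p = 0.275) and miR-106b-3p at -1.41 (SE 0.78, adjusted p = 0.275). None of these 3 was called, beside 3.33% of the 30 tested miRNAs (1), and 1 of 3 had an unadjusted p under 0.05, beside 16.7% (5). DESeq2 called none of the 3 either. All 3 had fitted values below 0, beside 56.7% of all tested, with a median of -1.98 against -0.32 over the 30 miRNAs.

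The call on miR-25-3p in this comparison turned on single libraries. It was called lower in CSC-like exosomes without untreated parental replicate 2 (-2.37, adjusted p = 0.0198), without untreated CSC-like replicate 1 (-3.28, adjusted p = 0.0311) and when the contrast was drawn from the joint fit (-2.55, adjusted p = 0.0201, edgeR). In the fits that left out 1 of these libraries, miR-25-3p passed the count filter only through the parental group, so those calls are descriptions. It no longer passed the count filter without untreated parental replicate 1 or 3. Alternatives that gave a value placed it between -3.28 and -1.67, with adjusted p-values of 0.0198 to 0.584. Untreated CSC-like replicate 1 was the library of its group with the most counts of all 3 tested members and the fewest counts in total (1526).

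**Figure D5:**
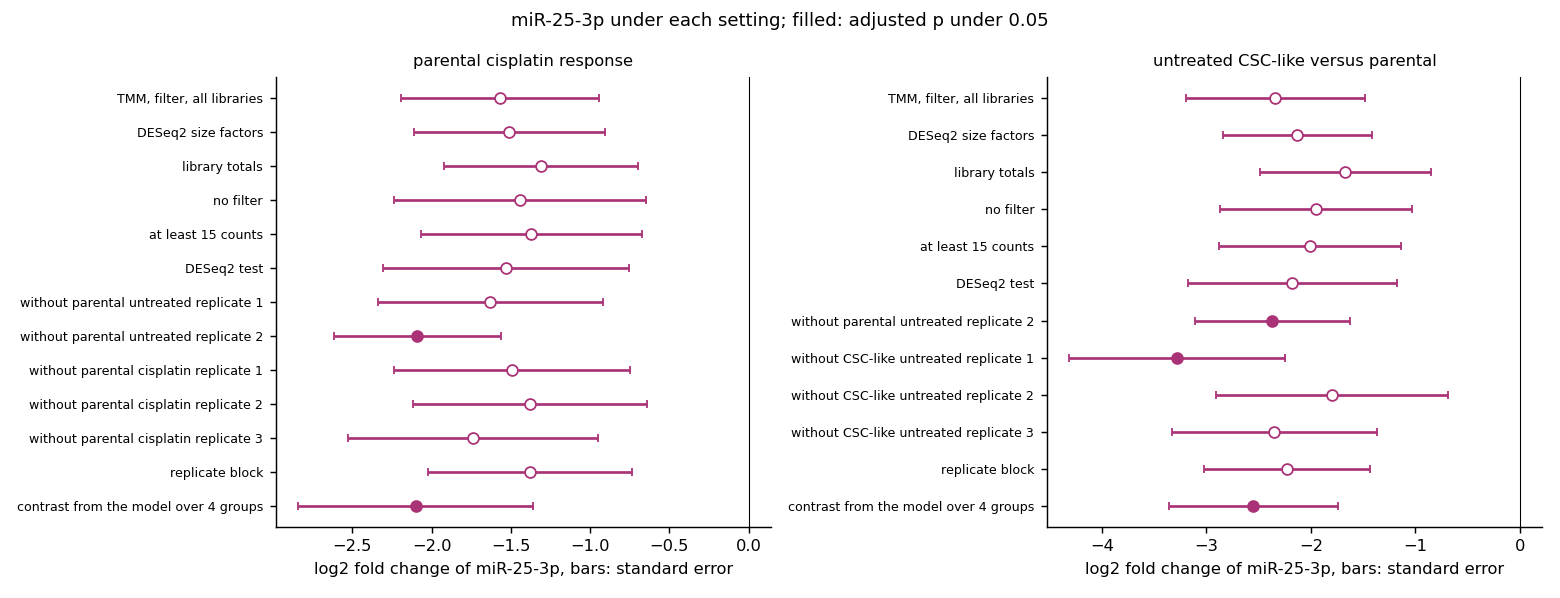
edgeR or DESeq2 log2 fold change of miR-25-3p (x axis, bars 1 standard error) under each setting that gave a value (rows), for cisplatin in parental exosomes (left) and for untreated CSC-like against parental exosomes (right). Filled points have an adjusted p under 0.05. All values lie below 0, from -2.10 to -1.31 on the left and from -3.28 to -1.67 on the right.

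Between the treated groups 42 miRNAs were tested. miR-92a-3p made up 0.466%, 0.479% and 0.508% of CSC-like and 0.710%, 0.845% and 1.35% of parental libraries. miR-106b-3p made up 0%, 0.107% and 0.0635% of CSC-like against 0.378%, 0.310% and 0.255% of parental libraries. miR-106b-3p had 0, 2 and 1 counts in CSC-like and 25, 11 and 10 in parental libraries, so it passed the count filter only through the parental group and its separation is a description. For both, every CSC-like library lay below every parental one. Of the 42 tested miRNAs 23.8% did not overlap between these groups, and 14.3% did so with the CSC-like samples lower. These percentages take treated CSC-like replicates 2 and 3 as 1 sample, which makes separation easier than over single libraries. The edgeR log2 fold changes were -0.82 for miR-92a-3p (SE 0.75, adjusted p = 0.848) and -1.80 for miR-106b-3p (SE 0.96, adjusted p = 0.742). edgeR called neither, both with an unadjusted p above 0.05, and DESeq2 called neither, beside 2.38% (1) and 4.76% (2) of tested miRNAs. miR-25-3p did not pass the filter here.

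Other miRNAs tied to the same biology were counted from lists. Of 13 miRNAs of other loci related to these clusters by their seeds, only miR-92b-3p was listed, and no library held more than 3 counts of it. Among 25 miRNAs known to be repressed by MYC, 18 appear among parental and 17 among CSC-like exosomes. In parental exosomes 6 were tested and 1 was called, beside 5.41% of all tested miRNAs. It was miR-30b-5p, which was higher after cisplatin with 1, 1 and 3 counts and then 19, 21 and 21 (2.97 on the log2 scale, SE 0.64, edgeR adjusted p = 0.00336). miR-30b-5p passed the count filter only through the treated group, so its higher value is a description. Median log2 fold changes of the list, beside those of all tested miRNAs, were 0.26 and -0.27 in parental exosomes, -0.57 and -0.15 in CSC-like exosomes, 0.33 and -0.32 between untreated and 0.40 and 0.08 between treated groups, and -1.10 and 0.36 for the interaction. In CSC-like exosomes none of 7 was called, beside 3.45% of all tested (edgeR). Untreated parental replicate 1 stood apart in the summed share of the list, at 1.96% against 14.4% and 11.7% in replicates 2 and 3. Between the untreated groups 1 of 7 was called, beside 3.33% of all tested, again miR-30b-5p, higher in CSC-like exosomes (3.50, SE 0.86, adjusted p = 0.00261, edgeR). It had 7, 29 and 18 counts in the untreated CSC-like libraries. Here it passed the count filter only through the CSC-like group, so this too is a description. Both contrasts use the same untreated parental libraries.

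miR-92a-3p and miR-25-3p are also abundant in red blood cells and serum, so the listed blood and serum markers were set beside them. Of 9 markers, miR-486-5p, miR-126-3p and miR-122-5p were listed in the parental table, and miR-451a, miR-486-5p and miR-126-3p in the CSC-like table. The erythroid miR-451a was thus unlisted in parental exosomes, and miR-144-3p, miR-144-5p, miR-223-3p, miR-142-3p and miR-142-5p were unlisted in both tables. Their summed share ranged over libraries from 0% to 0.284% in untreated and 0.0302% to 0.366% in treated parental exosomes, and from 0.119% to 0.184% and 0.0635% to 0.466% in CSC-like exosomes. In untreated parental replicates 1, 2 and 3 miR-486-5p had 9, 0 and 4 counts, so that replicate 2 was the lowest library for it as well as for miR-25-3p and miR-92a-3p. In treated parental replicates 1, 2 and 3 miR-486-5p had 0, 3 and 2 counts, where miR-25-3p had 12, 6 and 11 and miR-92a-3p 47, 30 and 53. The other markers listed there had 1, 0 and 0 counts untreated and 0, 7 and 2 treated (miR-126-3p), and 0, 0 and 6 and then 2, 3 and 3 (miR-122-5p). The part of blood or serum RNA in the values of these members was not tested.

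The miRNAs most alike in pattern were sought among 57 others that both tables list with a mean share of at least 0.1%, by Spearman correlation of shares over the 11 samples. miR-10a-5p was most like miR-92a-3p (rho = 0.836), followed by miR-151a-3p (0.564) and miR-99b-5p (0.555). miR-941 was most like miR-106b-3p (0.745), followed by miR-151a-3p (0.645) and miR-574-5p (0.446). The correlation between miR-92a-3p and miR-106b-3p themselves was 0.464. All points share their library's total, and low counts limit each rank, so these values are descriptions only.

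In the authors' deposited table for CSC-like exosomes, miR-17-5p had the lowest p-value of the 7 members, 0.0135, with a fold of 5.47. That p-value of the authors' deposited table became 0.256 on adjustment over its 114 miRNAs, and the fold rests on 2 untreated and 5 treated counts. In the authors' deposited table for parental exosomes the lowest p-value of a member was 0.121, for miR-106b-3p, with an adjusted value of 0.720 over 137 miRNAs and a 1.44-fold lower proportion. For miR-25-3p the authors' deposited table gave a 2.55-fold lower proportion (p = 0.155).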

How the data were processed

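Per the file headers, the authors deposited 1 table per cell population with whole read counts per mature miRNA after trimming, grouping on mature sequences and annotation, with no transformation. The deposited tables also hold the authors' group means and signed fold change of weighted proportions, both kept as scores, and an unadjusted p-value of Baggerley's test. Trimming and quality tools were cutadapt and FastQC, per the submitters' processing notes. Aligner, build and miRNA release: not given in the sources used here. Of each deposited file, 1 line was not analysed here.

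The test of counts was that of edgeR 4.0.16 with limma 3.58.1 under R 4.3.3, with filterByExpr defaults (minimum count 10, minimum total 15), TMM, the quasi-likelihood test, Benjamini-Hochberg adjustment over all miRNAs tested and a threshold of 0.05. Listed totals served as library sizes. Standard errors came from the fold change and F statistic. Libraries differing by less than sampling noise over miRNAs with at least 10 counts were summed. DESeq2 1.42.0, other scalings and filters, left-out libraries, replicate blocks and a model over all groups were alternatives. Scripts were tested on simulated data. Loci came from RefSeq and GENCODE 29, both on GRCh38.

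All listed members are reported. Other miRNAs are named where a list held them and a test called them, or by likeness to the 2 members with the highest mean share; miR-486-5p and miR-21-5p were named after their values were seen. 1 list of other miRNAs is not reported here. Members and lists were chosen with earlier results of these data known.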

Additional observations from a re-analysis of the deposited data

How the results depend on the processing

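Depth limits these results, and members that did not pass the count filter in a comparison were not tested in it. The 12 tested member results gave 164 values under alternatives, of which 156 kept their direction and their side of the threshold and 5, all of miR-25-3p, passed it. The other 3 reversed, each on leaving out 1 library: miR-92a-3p in parental exosomes (0.35 without untreated parental replicate 1, in a range from -0.915), its interaction (-0.34 without the same library, in a range up to 1.49) and the interaction of miR-106b-3p (0.40 without untreated CSC-like replicate 1, in a range from -0.947). The cause was not tested. Called miRNAs in parental exosomes numbered 2, and 0 with no filter (7 with an unadjusted p under 0.05 of 137, edgeR), 7 in a contrast from the model over 4 groups and 1 to 8 on leaving out a library (1 without untreated parental replicate 1, 8 without replicate 2). For CSC-like exosomes the count was 1, and 0 to 1 without a library (0 without untreated CSC-like replicate 1 or 3). Between untreated groups it was 1, then 5 in the contrast over 4 groups and 0 to 3 without a library (0 without untreated parental replicate 1 or untreated CSC-like replicate 2, 2 without untreated CSC-like replicate 1, 3 without untreated parental replicate 2), and between treated groups 1 in each alternative. For the interaction it was 1, then 2 with library totals or with separate libraries, 0 with at least 15 counts as the filter (5 with an unadjusted p under 0.05 of 78, edgeR) and 0 to 1 without a library (0 on leaving out any but untreated parental replicate 1 or 3 or treated CSC-like replicate 2). Where 1 sample of a group was left, it was assumed to vary like the others.

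The summed share of the 7 members was 4.99% in untreated parental, 3.62% in treated parental, 2.21% in untreated CSC-like and 2.03% in treated CSC-like exosomes relative to counts outside miR-21-5p and miR-100-5p. Without a library it ranged from 1.79% to 2.65%, 1.54% to 2.07%, 0.574% to 1.54% and 0.900% to 1.20% in untreated parental, treated parental, untreated CSC-like and treated CSC-like exosomes. TMM placed the median of all tested log2 fold changes at -0.27, -0.15, -0.32 and 0.08 in the parental, CSC-like, untreated and treated comparisons, and library totals at 0.01, -0.17, 0.14 and -0.05.

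No steady pairing of samples by replicate number was seen, which so few libraries per group cannot exclude. Deviations of same-numbered libraries from their group means correlated from -0.689 to 0.53, and at most 3 of 6 libraries of a comparison correlated best with their own number. With a replicate block the count of calls was 2 in parental exosomes, 0 in CSC-like exosomes (1 of 22 with an unadjusted p under 0.05, edgeR), 1 between untreated and 1 between treated groups, and 0 for the interaction (5 of 40). No member was called with a block (miR-25-3p -1.38, adjusted p = 0.367, in parental exosomes). A block within each population could not be fitted between populations, so 1 shared by both groups was used there, chosen after seeing the data, as were the other denominators of the cluster sums.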
